A study of Mus musculus with 8 samples.

Results

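The genes Gli1, Gli2 and Gli3 encode the zinc finger transcription factors of the Hedgehog pathway, and peaks of tagged GLI1 and GLI2 protein were examined here at these genes themselves. A peak was a member when it overlapped, by at least 1 bp, the mm9 window of a gene, which is the gene body with about 50 kb either side. The windows were chromosome 10 from 126717001 to 126829000 for Gli1 (112 kb), chromosome 1 from 120680001 to 121000000 for Gli2 (320 kb) and chromosome 13 from 15505001 to 15872000 for Gli3 (367 kb). They held 83 of the 173807 peaks in 4 lists: 15 at Gli1, 45 at Gli2 and 23 at Gli3.

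Each list came from 1 anti-FLAG ChIP library of undifferentiated (day 0) female F1-2.1 mouse embryonic stem cells that carried a Tet-on transactivator (rtTA) and a stable transgene under tetracycline response elements, either GLI1-3xFLAG or GLI2-3xFLAG. All cells, grown on irradiated feeder fibroblasts with LIF, had received 1 µg/mL doxycycline, which turns the transgene on, and 100 nM SAG, which activates Smoothened, for 72 hours. The factors therefore came from a transgene and the pathway was stimulated in every library. There were 2 replicates per factor, called biological in the labels, with 42634 and 55741 peaks for GLI1 and 26511 and 48921 for GLI2. Read depth is unknown, since only peaks were analysed, and cells without a tagged factor were not analysed here. The labels do not say whether the transgenes are of mouse or human origin.

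In the Hedgehog pathway, ligand binding to Patched frees Smoothened, which lets GLI proteins act as activators in the nucleus. GLI2 is known as the main activator, GLI3 acts mostly as a repressor after it is cut, and Gli1 is a classic target gene whose product adds to activation. GLI proteins read the DNA sequence GACCACCCA or close variants of it through their zinc fingers.

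The sequence just before the start of Gli2 and Gli3 is shown because both genes could be checked for these letters, although no peak covered either start. RefSeq promoters (build GRCm38.p6) were matched for 2 of the 3 genes, Gli2 and Gli3. The 250 bases before the start are printed 5′ to 3′ along the gene, from chr1:119053620-119053869 on the minus strand for Gli2 and from chr13:15463473-15463722 on the plus strand for Gli3. These GRCm38.p6 positions cannot be set beside the mm9 positions of the peaks. Capitals mark the core CCACCC or its reverse complement GGGTGG.
Gli2: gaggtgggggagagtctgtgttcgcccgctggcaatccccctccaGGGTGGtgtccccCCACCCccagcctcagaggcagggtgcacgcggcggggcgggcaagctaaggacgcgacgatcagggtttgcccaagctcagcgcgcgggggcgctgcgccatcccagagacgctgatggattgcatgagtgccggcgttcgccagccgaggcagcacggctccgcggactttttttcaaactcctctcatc
Gli3: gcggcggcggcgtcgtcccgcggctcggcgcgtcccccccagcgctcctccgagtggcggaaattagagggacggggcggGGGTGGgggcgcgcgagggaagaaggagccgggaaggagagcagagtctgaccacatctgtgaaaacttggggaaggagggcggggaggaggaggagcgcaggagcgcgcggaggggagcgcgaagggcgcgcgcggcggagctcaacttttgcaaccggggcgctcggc
Neither stretch held the whole 9-letter word GACCACCCA on either strand, as was the case for all but 0.225% of 32851 RefSeq promoters of the same length. The 6-letter core, which lies within that word, occurred at 2 places before Gli2, beginning 205 and 192 bases before the start, and at 1 place before Gli3, 170 bases before it. The core was found in 28.1% of all promoters. G and C made up 67.2% of the Gli2 and 72.8% of the Gli3 stretch, against a median of 52.4% over all promoters. A match of letters describes the sequence and is no evidence of binding.

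The windows were larger than the genes on purpose, so the inner part of each was taken as the gene body by removing 50 kb from both ends. These inner parts were 12, 220 and 267 kb long, close to the RefSeq gene lengths of 11698, 220345 and 266304 bp for Gli1, Gli2 and Gli3. Gli2 is read towards lower coordinates and Gli3 towards higher ones, per RefSeq, and mouse Gli1 is known to be read towards lower ones. The start of a gene is therefore given here as an end of the inner part, which is rounded to 1 kb. Exon positions in mm9 were not used, so no peak was assigned to an exon or intron. Among protein-coding genes in RefSeq order, an inhibin beta gene stands beside each Gli gene, namely Inhbe next to Gli1, Inhbb next to Gli2 and Inhba next to Gli3. The 50 kb on the sides of Gli1 hold parts or all of 8 other protein-coding genes, Dctn2, Mbd6, Ddit3, Mars1, Arhgap9, Inhbe, Inhbc and R3hdm2, while those of Gli2 and Gli3 hold none.

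At Gli1, the target gene of the pathway, GLI2 had more peaks than GLI1. GLI1 had 1 peak in replicate 1 and 3 in replicate 2, whereas GLI2 had 7 in replicate 1 and 4 in replicate 2. The lists of both factors did not overlap in number, with GLI2 replicate 1 the highest. The share of windows of the genome in which the factors are separate in this way was not counted. The counts of both GLI2 lists included a peak across the lower border, centred outside the window. Without this peak GLI2 replicate 2 would be level with GLI1 replicate 2. To compare lists of different length, each count was set beside all windows of 112 kb laid end to end over the autosomes and X in the same list. For GLI1, 81.4% of these windows held at least 1 peak in replicate 1 and 41.3% held at least 3 in replicate 2. For GLI2, 0.157% held at least 7 in replicate 1 (36 of 23002) and 19.2% held at least 4 in replicate 2. The GLI1 counts and that of GLI2 replicate 2 were thus common in the genome, and that of GLI2 replicate 1 was rare. Dividing each count by the mean window of its list gave a relative density, where 1 is the genome average. It was 0.534 and 1.23 for GLI1 (mean 0.880 ± 0.490, SD, n = 2) and 6.02 and 1.86 for GLI2 (mean 3.94 ± 2.94, SD, n = 2). The difference, GLI1 minus GLI2, was -3.06 (two-sided exact permutation p = 0.333, the smallest that 2 lists against 2 allow, 0.5 after Benjamini-Hochberg adjustment over 3 loci). It rested mostly on GLI2 replicate 1, without which it was -0.983. Within replicate numbers it was -5.48 for replicate 1 and -0.637 for replicate 2. With peaks counted by their centre, the replicate 2 lists had relative densities of 1.24 for GLI1 and 1.41 for GLI2.

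**Figure D1:**
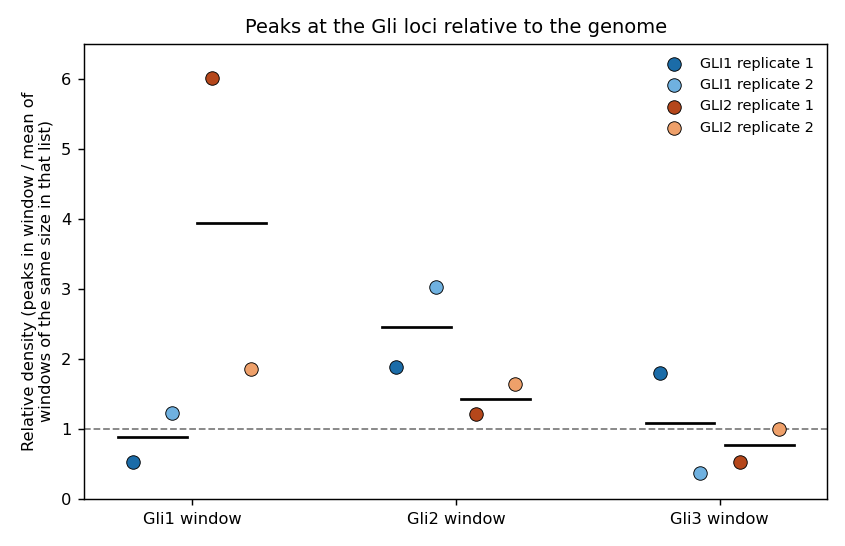
Relative density of peaks (peaks in the window divided by the mean of windows of the same size in that list, linear axis) in the Gli1, Gli2 and Gli3 windows. Points are the 4 lists, black lines the mean of each factor (n = 2) and the dashed line the genome average of 1. GLI2 replicate 1 reached 6.02 at Gli1, and all 4 lists lay above 1 at Gli2.

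Recurrent GLI2 regions lay upstream of Gli1, 1 of them close to its start, and at the lower border of the window. Regions with a peak in both GLI2 lists numbered 3 in the Gli1 window, against a mean of 0.406 per window of that size. At least 3 occurred in 1.17% of these windows. For GLI1 there were none, as in 68.9% of windows. The first of the GLI2 regions ran from 126779601 to 126781200, with 0.6 kb between it and the start end of Gli1, on the upstream side towards Inhbe. Its peak in replicate 1 was 1200 bp wide with a score of 57.6, a score exceeded by 55.0% of that list, and its peak in replicate 2 was 1600 bp wide. The score is the authors' value per peak, in an unstated unit. It was 0 for nearly all replicate 2 peaks and was used for replicate 1 lists alone. Of the other 2 regions, 1 lay from 126801001 to 126802400, at 22.0 kb beyond the start end. The last ran from 126715801 to 126717600, across the lower border of the window and 49.4 kb from the gene body. It was centred outside the window but is part of the count of 3, and recurrence was not recounted by peak centre. All 3 regions thus lay outside the gene body, and the flanks also hold parts or all of 8 other protein-coding genes. The windows of the genome were not matched for gene density. How often recurrent GLI2 regions fall this near to a gene start in the genome was not analysed here.

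The gene body of Gli1, only 12 kb long, held 1 peak in each replicate 1 list and none in the replicate 2 lists. A single peak amounts to 8.33 peaks per 100 kb, against 0 in the flanks for GLI1 replicate 1 and 6 for GLI2 replicate 1, and to relative densities of 4.57 and 7.38. The flanks held 3 and 4 peaks per 100 kb in replicate 2 of GLI1 and GLI2. Counted in the gene body alone, the factors overlapped (two-sided exact permutation p = 1). The GLI1 replicate 1 peak ran from 126774401 to 126775400, with a score of 52.4 that 28.0% of the list exceeded. The GLI2 replicate 1 peak ran from 126775401 to 126777000, with a score of 62.4 that 32.5% of the list exceeded. These peaks touched each other without sharing a base and so were counted as separate regions. Whether a transgene adds reads over exons of Gli1 or Gli2 was not tested, since no peak was assigned to an exon. The nearest GLI1 peaks to the Gli1 start were 3.6 kb away in each list, inside the gene in replicate 1 and upstream in replicate 2, from 126782601 to 126783600. The highest score of the locus belonged to a GLI2 replicate 1 peak from 126751401 to 126753200, in the lower flank, with 75.6, which 9.28% of the list exceeded. It was also the widest of that list at the locus, at 1800 bp. GLI1 replicate 2 was widest from 126787401 to 126788800, at 1400 bp, and GLI2 replicate 2 at the region on the lower border, at 1800 bp.

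**Figure D2:**
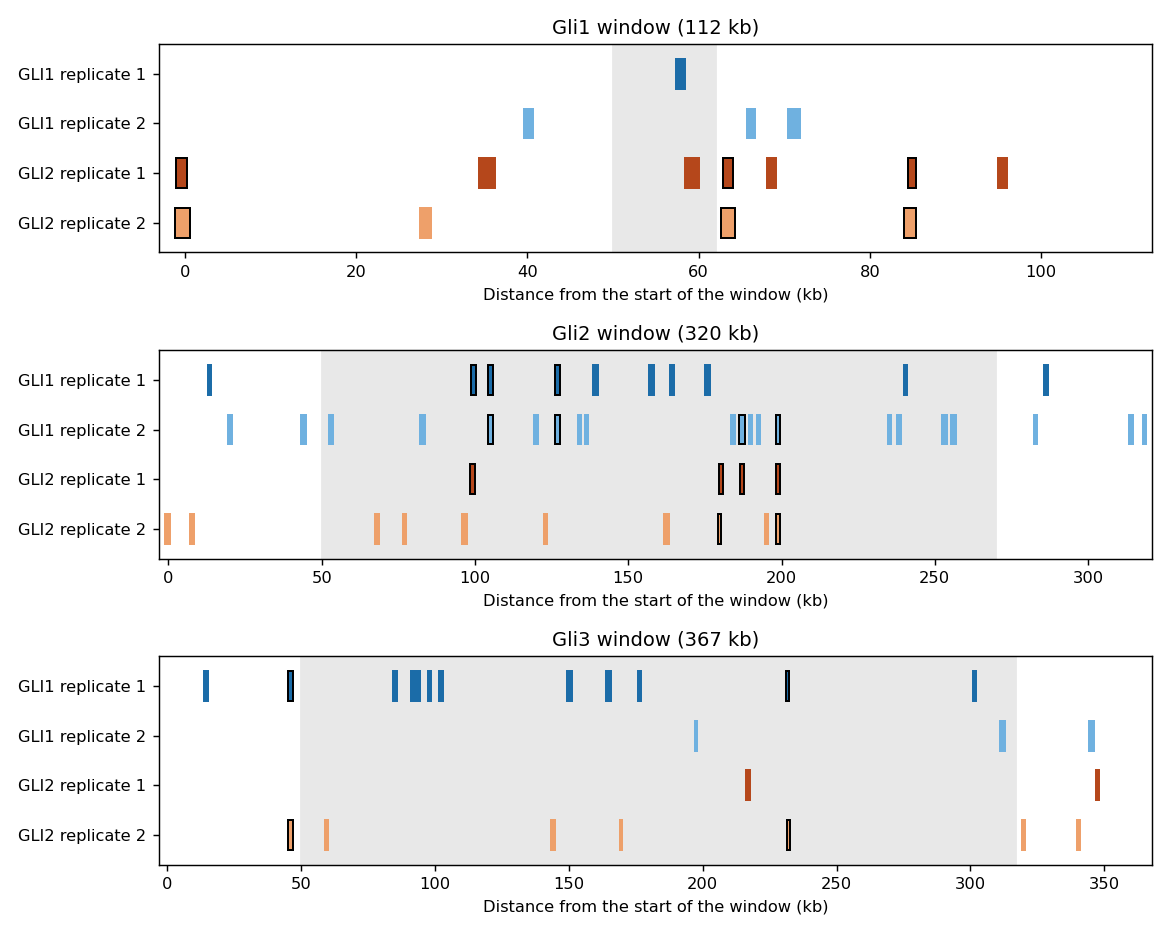
Peaks of the 4 lists along the windows of Gli1, Gli2 and Gli3, by distance from the start of each window in kb. Boxes are drawn to the width of the peaks, black outlines mark peaks that overlap a peak of another list, and grey shading marks the window less 50 kb at each end. Outlined GLI2 peaks at Gli1 lie outside the shading. Outlined peaks at Gli2 all lie within it, as do most peaks there. Gli3 has no peak shared by replicates of a factor.

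At Gli2, which encodes the main activator of the pathway, peaks were denser than the genome average in all 4 lists. GLI1 had 10 peaks in replicate 1 and 21 in replicate 2, and GLI2 had 4 in replicate 1 and 10 in replicate 2. GLI1 replicate 2 was the highest, and the factors met at 10 peaks. Of the 8045 windows of 320 kb, 7.77% held at least 10 peaks in GLI1 replicate 1 and 0.982% held at least 21 in GLI1 replicate 2. At least 4 peaks occurred in 41.1% of windows for GLI2 replicate 1 and at least 10 in 14.6% for GLI2 replicate 2. The count of GLI1 replicate 2 was thus uncommon and the GLI2 counts were ordinary. Relative densities were 1.88 and 3.02 for GLI1 (mean 2.45 ± 0.808, SD, n = 2) and 1.21 and 1.64 for GLI2 (mean 1.43 ± 0.304, SD, n = 2). GLI1 minus GLI2 was 1.03 (two-sided exact permutation p = 0.333, adjusted 0.5), with 0.670 within replicate 1 and 1.38 within replicate 2. The lists of both factors were separate on this scale as deposited, and the share of windows of the genome where this holds was not counted. With replicate 1 lists held to a score of at least 50, the value of GLI1 replicate 1 dropped to 1.01, below both GLI2 lists. Without GLI1 replicate 2 the difference was 0.455.

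**Figure D3:**
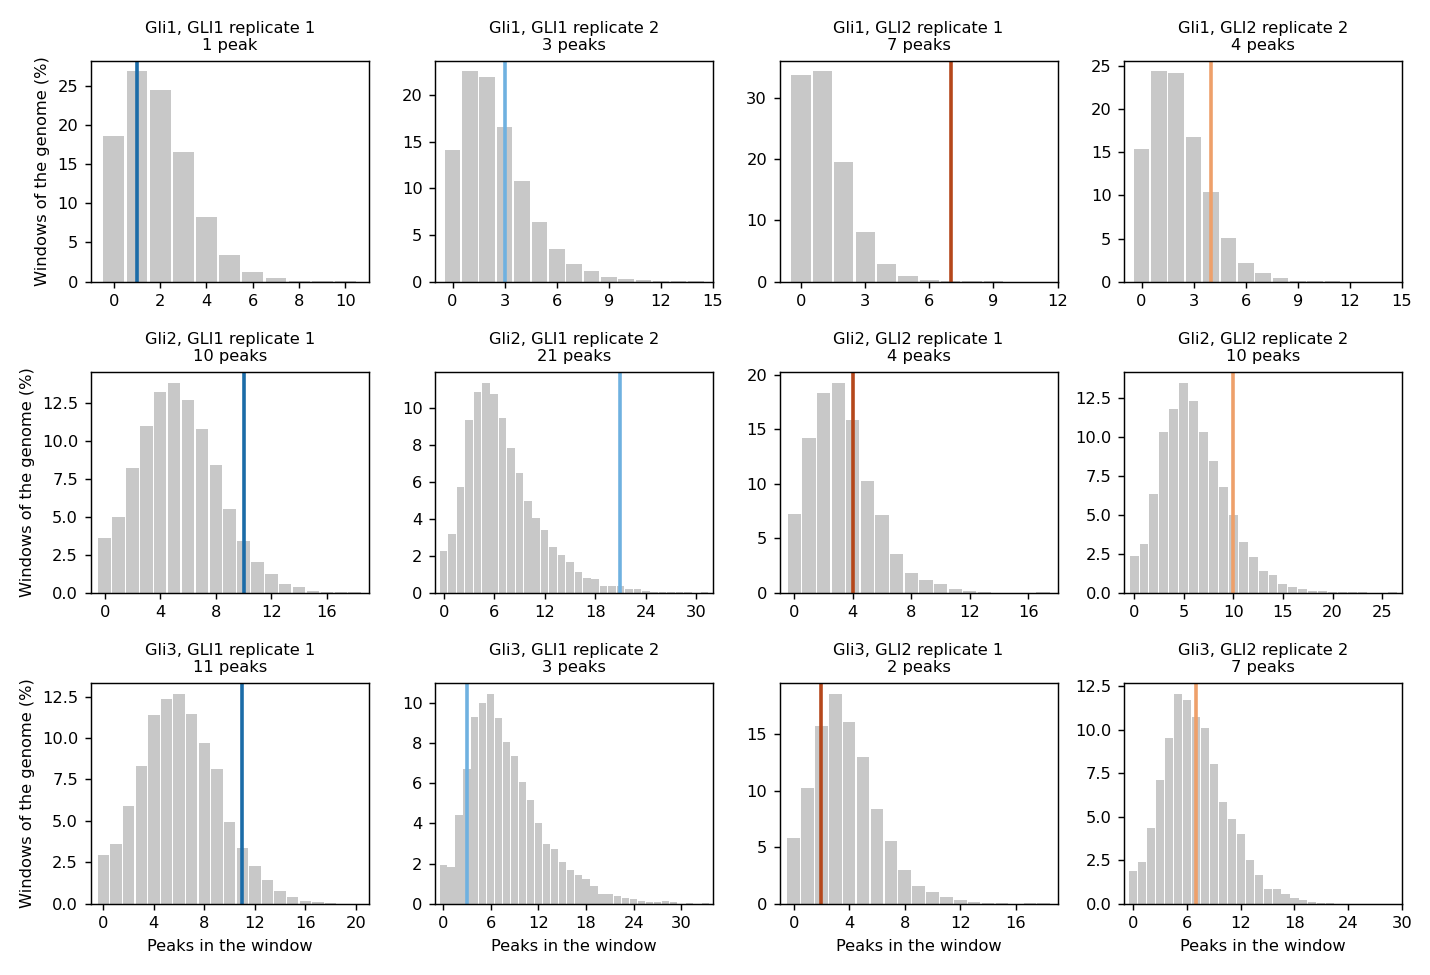
Number of peaks in windows of the same size as each Gli window (horizontal axis) against the percent of such windows over the autosomes and X (vertical axis), for each gene and list. Grey bars are the windows of the genome and the coloured line is the Gli window. The line lies far to the right for GLI2 replicate 1 at Gli1 (7 peaks) and GLI1 replicate 2 at Gli2 (21 peaks), and to the left for GLI1 replicate 2 at Gli3 (3 peaks).

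Most peaks at Gli2 lay in the gene body, which makes up 220 of the 320 kb. The gene body held 8 of 10 and 16 of 21 GLI1 peaks, and 4 of 4 and 8 of 10 GLI2 peaks. Per 100 kb this came to 3.64 and 7.27 GLI1 peaks inside, against 2 and 5 in the flanks. For GLI2 it came to 1.82 and 3.64 inside, against 0 and 2 in the flanks. The gene body was thus denser than its flanks in all 4 lists, though the flanks held 5 peaks or fewer in each. How often windows of the genome have an inner part denser than its flanks was not counted. With peaks counted in the gene body alone, relative densities were 2.19 and 3.35 for GLI1 and 1.76 and 1.91 for GLI2.

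Of the 38 regions at Gli2, 6 had peaks in more than 1 list. All 6 lay in the gene body, which makes up 220 of the 320 kb and held most peaks of each list. GLI1 recurred in 2 regions, from 120784401 to 120785800 and from 120806201 to 120807600, and both intervals were identical in the 2 replicates. At least 2 recurrent GLI1 regions occurred in 30.6% of windows of this size. The first had a replicate 1 score of 40.7, which 88.5% of the list exceeded, and the second a score of 67.8, which 5.89% exceeded. GLI2 also recurred in 2 regions, as at least 2 did in 31.2% of windows, so recurrence at Gli2 was ordinary for both factors. One GLI2 region ran from 120859201 to 120860800, with a replicate 1 score of 50.4, near the lower limit of the list. The other, from 120878201 to 120879600, had a score of 62.0 and was the only region at the 3 genes with peaks in 3 lists, both GLI2 lists and GLI1 replicate 2. It lay 70.4 kb inside the gene from its start. Over the whole series, 2.49% of regions had peaks in 3 lists and 0.421% in all 4, and none of the regions at the 3 genes was in all 4. The remaining shared regions joined GLI1 replicate 1 with GLI2 replicate 1, from 120778401 to 120780200, and GLI1 replicate 2 with GLI2 replicate 1, from 120866201 to 120868000. Each of the 4 GLI2 replicate 1 peaks at Gli2 thus overlapped a peak of another list, against 3 of 7 at Gli1 and 0 of 2 at Gli3. The share over all peaks of that list was not computed.

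The start of Gli2 had no peak near it. The nearest GLI1 peaks lay upstream, at 15.6 kb in replicate 1 (120965601 to 120967000) and at 12.2 kb in replicate 2 (120962201 to 120963200). The nearest GLI2 peaks lay 70.6 and 70.4 kb inside the gene. The highest score at the locus was 70.5, in GLI1 replicate 1 from 120836801 to 120838400, which 4.48% of that list exceeded, and no other list had a peak there. Of the 10 GLI1 replicate 1 peaks, 5 scored above the median of their list, 46.9, and of the 4 GLI2 replicate 1 peaks 1 scored above its median of 58.8. The widest peaks measured 1600 bp in GLI1 replicate 1 and both GLI2 lists, a width exceeded by 20.1% of GLI1 replicate 1, 13.4% of GLI2 replicate 1 and 10.2% of GLI2 replicate 2. In GLI1 replicate 2 they measured 1800 bp, exceeded by 5.23% of that list.

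At Gli3, which encodes the pathway's main repressor, peak numbers differed between the replicates of both factors, most widely for GLI1. GLI1 had 11 peaks in replicate 1 and 3 in replicate 2, and GLI2 had 2 in replicate 1 and 7 in replicate 2. The factors overlapped. A mean window of this size held 6.09 and 7.96 peaks for GLI1 and 3.79 and 6.98 for GLI2. The count of GLI2 replicate 2 was thus at the average of its longer list. Of the 7012 windows of 367 kb, 8.56% held at least 11 peaks in GLI1 replicate 1 and 91.8% held at least 3 in GLI1 replicate 2. At least 2 peaks occurred in 84% of windows for GLI2 replicate 1 and at least 7 in 50.9% for GLI2 replicate 2. Relative densities were 1.81 and 0.377 for GLI1 (mean 1.09 ± 1.01, SD, n = 2) and 0.528 and 1.00 for GLI2 (mean 0.765 ± 0.335, SD, n = 2). The difference of 0.326 was smaller than the spread between the GLI1 replicates (two-sided exact permutation p = 1, adjusted 1). It was 1.28 within replicate 1 and -0.625 within replicate 2, and turned to -0.388 without GLI1 replicate 1.

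No region of Gli3 recurred between replicates of a factor, as in 33.5% of windows for GLI1 and 31.5% for GLI2. Of 21 regions, 2 had peaks in more than 1 list, and both joined GLI1 replicate 1 with GLI2 replicate 2. One lay from 15550201 to 15551800, at 3.2 kb upstream of the start of Gli3, with the same borders in both lists. Its GLI1 score was 42.6, which 76.9% of the list exceeded. The other, from 15736001 to 15737800, lay 181 kb inside the gene, with a GLI1 score of 51.0. The nearest peaks to the start in the other lists were far inside the gene, at 147 kb for GLI1 replicate 2 and 166.2 kb for GLI2 replicate 1.

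In contrast to Gli2, the gene body of Gli3 was denser than its flanks in GLI1 replicate 1 alone, with 3.37 against 2 peaks per 100 kb. It had 0.749 against 1 in GLI1 replicate 2 and 0.375 against 1 in GLI2 replicate 1. GLI2 replicate 2 had 4 peaks in the 267 kb of the gene body and 3 in the shorter flanks. GLI1 replicate 1 placed 9 of its 11 Gli3 peaks in the gene body, and 4 of them lay close together between 15589201 and 15608000. This group held the widest peak at any of the 3 genes, 3400 bp from 15596001 to 15599400, a width exceeded by 1.15% of the list. Its score was 46.7, near the median of the list, and no other list had a peak in the group. The highest score at Gli3 was 68.8, in the lower flank from 15518801 to 15520400, which 5.24% of GLI1 replicate 1 exceeded. GLI1 replicate 2 left 197 kb of the window without a peak in 1 stretch and GLI2 replicate 1 left 216.2 kb, against 68.6 kb in GLI1 replicate 1 and 86.4 kb in GLI2 replicate 2. GLI2 replicate 1 had peaks from 15721201 to 15722800 and from 15851801 to 15853200, with scores of 59.6 and 61.1, both above the median of that list. GLI1 replicate 2 was widest from 15816001 to 15817800, at 1800 bp, and GLI2 replicate 2 at the region upstream of the start and from 15648401 to 15650000, at 1600 bp each.

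Set side by side, the genes followed a different order for the factors. In both GLI1 lists the Gli2 window had the highest relative density, with Gli3 second in replicate 1 and Gli1 second in replicate 2. The first place was close in GLI1 replicate 1 and passed to Gli3 with a score of at least 50 (2.20 against 1.01 at Gli2), with lists of equal length (2.11 against 1.81) and with covered bases (2.09 against 1.81). In the gene body alone it passed to Gli1, at 4.57. In both GLI2 lists the order was Gli1, Gli2 and Gli3. In GLI2 replicate 2 Gli2 came first when peaks were counted by their centre (1.48 against 1.41 at Gli1) and in the gene body alone (1.91, with 0 at Gli1 and 0.786 at Gli3). The difference between the Gli2 and Gli1 windows was 1.57 ± 0.318 for GLI1 and -2.51 ± 3.24 for GLI2 (SD, n = 2 each). GLI1 and GLI2 differed in this value by 4.09, which was 6.15 within replicate 1 and 2.02 within replicate 2 (two-sided exact permutation p = 0.333, the smallest possible, adjusted 0.5 over 3 pairs of genes). Gli2 against Gli3 gave 0.700 (exact permutation p = 1, adjusted 1), with -0.607 within replicate 1 and 2.01 within replicate 2. Gli3 against Gli1 gave 3.39 (exact permutation p = 0.333, adjusted 0.5), with 6.76 within replicate 1 and only 0.0113 within replicate 2. Over all 4 lists, mean relative density was 2.41 ± 2.46 at Gli1, 1.94 ± 0.774 at Gli2 and 0.928 ± 0.643 at Gli3 (SD, n = 4). Taken within lists, Gli2 minus Gli1 was -0.470 ± 3.02 and Gli2 minus Gli3 was 1.01 ± 1.12 (SD, n = 4). Neither mean exceeded its spread, although Gli2 lay above Gli3 in all 4 lists as deposited. Counts at least as high as those of Gli1 in all 4 lists at once were found in 22 windows of the genome (0.0956%). Those of Gli2 were reached in 9 windows (0.112%). A single list set most of this limit, since 36 windows reached the GLI2 replicate 1 count at Gli1 and 79 the GLI1 replicate 2 count at Gli2. For Gli3 there were 340 such windows (4.85%), and no window had exactly the same 4 counts as any of the 3 genes.

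The share of regions with peaks in more than 1 list was 3 of 12 (25%) at Gli1, 6 of 38 (15.8%) at Gli2 and 2 of 21 (9.52%) at Gli3. Over all 142067 regions of the series it was 18.9%, between the values of Gli1 and Gli2.

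Bases covered by peaks followed the counts. At Gli1, peaks covered 0.893 and 3.04% of the window for GLI1 and 6.96 and 4.46% for GLI2. At Gli2 they covered 4.31 and 8.69% for GLI1 and 1.56 and 3.56% for GLI2, and at Gli3 4.96 and 1.20% for GLI1 and 0.817 and 2.40% for GLI2. Over the span of the autosomes and X, coverage was 2.38 and 2.95% for GLI1 and 1.41 and 2.59% for GLI2.

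Windows of the same size directly beside each gene differed in how far they shared its density. Beside Gli1, GLI2 replicate 1 had 3 peaks before and 1 after the window, against 7 in it. GLI2 replicate 2 had 3 on each side, against 4. In both GLI2 lists the peak across the lower border was counted in the Gli1 window and also in the window before it. GLI1 had 2 and 1 peaks beside it in replicate 1 and 5 and 5 in replicate 2, at or above its counts at Gli1 in both lists. Beside Gli2, GLI1 replicate 2 had 7 peaks before and 11 after, against 21, whereas GLI1 replicate 1 had 7 before and 13 after, against 10. The excess of GLI1 replicate 1 thus extended past the Gli2 window. Beside Gli3, GLI1 replicate 1 had 7 peaks before and 5 after, fewer than the 11 in the window, whereas GLI1 replicate 2 had 5 and 6, against 3. GLI2 replicate 1 had 6 before and 8 after, against 2, and GLI2 replicate 2 had 5 and 8, against 7.

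**Figure D4:**
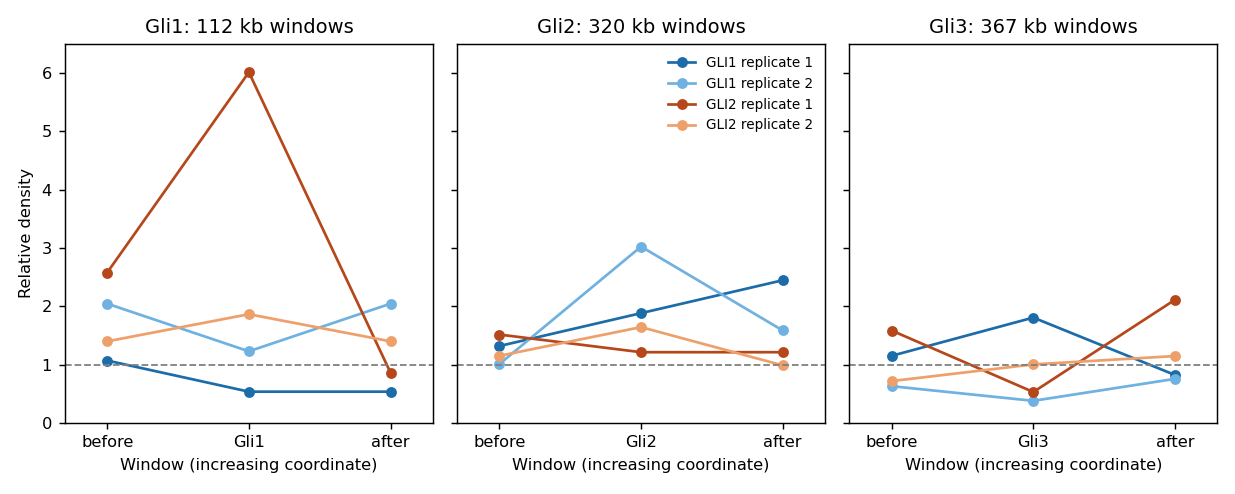
Relative density (1 is the genome average, dashed) in each Gli window and in the windows of the same size directly before and after it in increasing coordinates. Each line is 1 of the 4 lists. A peak across a border is counted in both windows. GLI2 replicate 1 was 6.02 at Gli1 against 2.58 before and 0.859 after, and GLI1 replicate 2 was 3.02 at Gli2 against 1.01 before and 1.58 after.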

How the data were processed

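The submitters' processing notes name CASAVA 1.7, BWA and the build mm9, but no peak caller. The 4 deposited peak lists, 1 per ChIP library, give chromosome, start, end, name and a score set by the authors. Per the labels, the cutoff was 1e-4 for GLI1 and 1e-5 for GLI2, and a setting s, which the labels do not explain, was 50 for replicate 1 and 20 for replicate 2, so differences between lists also hold these settings. Positions lie on a 200 bp grid and are printed counted from 1. The 4 input libraries had no list of their own; input samples of replicate 1 carry the antibody label Anti-FLAG.

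Windows of each Gli window's size were laid end to end over the autosomes and X, from the first to the last peak of any list, and all were used in place of a random draw. Regions are unions of peaks overlapping by at least 1 bp, and recurrent regions hold a peak in both lists of a factor. GLI1 and GLI2 lists were compared by exact permutation (two-sided). Named peaks are those shared by lists, the highest scored, the widest and those nearest to a gene start at each locus; a few others, and the windows beside each gene, were chosen after their values were seen. The members and lists were chosen with earlier results of these data known. Nothing says that replicates came from separate cultures beyond the word biological, and p-values measure the spread between these lists only. The counting code was tested on simulated lists. Python 3.11.15, numpy 2.4.6, pandas 2.3.3, scipy 1.17.1 and matplotlib 3.10.9 were used. The gene table is of GRCm38.p6 and gave names, lengths and neighbours; other pathway genes were not analysed here.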

Additional observations from a re-analysis of the deposited data

How the results depend on the processing

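Relative density was recomputed with 9 other settings: peaks counted by their centre, the gene body alone, windows of the same chromosome, sliding windows every 10 kb, a score of at least 50 in replicate 1, lists of equal length, covered bases, peaks closer than 2000 bp joined, and, chosen after seeing the data, only windows with a peak in any list. GLI1 minus GLI2 kept its sign in all 9 at each gene, from -3.87 to -1.41 at Gli1, 0.590 to 1.51 at Gli2 and 0.293 to 0.791 at Gli3. The 9 settings are not separate checks. Windows of the same chromosome, sliding windows and windows with a peak in any list changed only the mean that each count is divided by. A score of at least 50 removed peaks from GLI1 replicate 1 alone, since the lowest score of GLI2 replicate 1 was 50.003. The value of -1.41 at Gli1 came from the gene body alone, where both factors had 1 and 0 peaks, so its sign reflects list length and the lists overlapped (exact permutation p = 1). They also overlapped at Gli2 with a score of at least 50 (0.590, exact permutation p = 1). The value of -3.87 at Gli1 came from lists of equal length. These kept the highest scored peaks in replicate 1 and the widest peaks in replicate 2, with ties in random order. Leaving out each list in turn gave -5.14 to -0.983 at Gli1, 0.455 to 1.60 at Gli2 and -0.388 to 1.04 at Gli3, where the sign turned without GLI1 replicate 1. The mean over lists then ran from 1.21 (without GLI2 replicate 1) to 3.03 at Gli1, 1.58 to 2.18 at Gli2 and 0.636 to 1.11 at Gli3. The 3 recurrent GLI2 regions at Gli1 became 0 in the gene body alone, since all lie outside it. The 2 recurrent GLI1 regions at Gli2 became 1 with a score of at least 50 and 1 with equal lists, and the 2 GLI2 regions became 1 with equal lists; no recurrence can be counted without a list. With a replicate block the differences of -3.06, 1.03 and 0.326 were the same, with exact sign permutation p of 0.5, 0.5 and 1, where 2 pairs allow none below 0.5. The labels give same-numbered lists the same setting s, 50 for replicate 1 and 20 for replicate 2, and do not otherwise tie them. The deviations of same-numbered lists correlated at r = 0.0988 to 0.138 over windows of the genome. Peak lists hold no depth, so counts of 1 to 3 peaks cannot be told from missed peaks.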

Other observations

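Some peaks had exactly the same borders in different lists, which the 200 bp grid makes possible. At the 3 Gli genes, 4 of 13 overlapping pairs of peaks were identical: both recurrent GLI1 pairs in the Gli2 gene body, the pair of GLI1 replicate 2 and GLI2 replicate 1 from 120878201 to 120879400 in Gli2, and the pair upstream of Gli3. None of the 5 recurrent GLI2 pairs was identical. Over the whole lists 14.5% of 36811 overlapping pairs were identical, with 13.4% between the GLI1 replicates and 18.3% between the GLI2 replicates. These counts were looked at after the peaks had been seen and were not tested.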
